A study of Mus musculus with 37 samples.

Results

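The GIMAP genes encode a family of GTPases found mainly in lymphocytes. All rows of Gimap1, Gimap3, Gimap4, Gimap5, Gimap6, Gimap7, Gimap8 and Gimap9 were taken, 8 of the 53700 genes counted, in each of 37 libraries of uterine natural killer (uNK) cells. The cells came from the pregnant uterus of C57BL6 mice, collected between gestation day 9.5 and 10.5, and were sorted as live CD45+ NKp46+ cells without CD3, CD4 or CD8 and without high CD11b. Cells positive for the inhibitory receptor NKG2A but not for Ly49C/I (NKG2A+), cells positive for Ly49C/I but not for NKG2A (Ly49C/I+) and cells negative for both, called uneducated because they lack these receptors for MHC class I, were collected, and double-positive cells were not. From WT mice there were 9 uneducated, 9 NKG2A+ and 6 Ly49C/I+ libraries, and from NKG2A KO mice, which the labels describe by that genotype alone, 8 uneducated and 5 Ly49C/I+ libraries. The labels do not say whether libraries of a group came from separate mice, so that p-values measure only the spread between these libraries. Reads were counted per gene, and levels are given as CPM, which relate the reads of a gene to all reads on genes of its library, on library sizes scaled by TMM over all 37 libraries.

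GIMAP proteins share a GTP-binding AIG1 domain, and several of them anchor in intracellular membranes such as those of lysosomes, mitochondria or the endoplasmic reticulum. They are best known for keeping resting T, B and NK cells alive, and loss of Gimap5 in mice leads to a severe shortage of T and NK cells. Their activity has been tied to proteins of the BCL2 family, which set the threshold for apoptosis, and, through Gimap6, to the ATG8 proteins of autophagy.

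In the libraries, 13287163 to 18875033 reads fell on genes (median 17273311). Between 13982 and 17859 genes had a count, and WT uneducated 5, WT NKG2A+ 9, WT Ly49C/I+ 5 and KO Ly49C/I+ 5 had the fewest. Klrc1, which encodes NKG2A, had 604.5 ± 89.8 CPM (SD, n = 9) in NKG2A+ libraries, 4.27 ± 3.90 CPM (n = 9) in WT uneducated and 2.16 ± 0.758 CPM (n = 8) in KO uneducated libraries. In WT mice the sort removed NKG2A+ cells from the other groups, so low Klrc1 there checked the sort. In NKG2A KO mice the receptor is missing, so cells could not be sorted out by it. Low Klrc1 in KO libraries thus cannot be credited to the sort, and whether it reflects the deletion was not tested. KO uneducated and KO Ly49C/I+ groups may hold cells that would be NKG2A+ in WT mice. The paper lists its antibody as NKG2AC/E, so the gate may also have acted on NKG2C or NKG2E in either genotype. Klra9, which encodes Ly49I, had 652 ± 96.3 CPM (n = 6) in WT Ly49C/I+ and 981 ± 153 CPM (n = 5) in KO Ly49C/I+ libraries, against group means of 70.2 to 106 CPM elsewhere. Klra3, which encodes Ly49C, was lower in WT Ly49C/I+ libraries, at 55.3 ± 19.2 CPM, than in WT uneducated libraries, at 137 ± 49.4 CPM, but the Ly49 genes are so alike that reads may be shared between them. The NK cell marker Ncr1, which encodes NKp46, was detected in every library (group means 606 to 940 CPM).

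The 8 genes lie side by side on chromosome 6, within 123618 bases (chr6:48647234-48770851 in GRCm38, GENCODE M21). Along the plus strand the order is Gimap8, Gimap9, Gimap4, Gimap6, Gimap7, Gimap1, Gimap5 and Gimap3, of which Gimap6 and Gimap3 are read from the minus strand. A noncoding gene, Gimap1os, is read from the minus strand across Gimap1 and overlaps 36% of its exon bases. The strand was not given for the counting. If it was ignored, reads of the pair cannot be told apart there and may have been set aside as ambiguous, which would lower the levels of both genes. Of all stretches of 50 bases in the transcripts, those also found in another gene came to 8.15% for Gimap3, 6.84% for Gimap5, 5.94% for Gimap1, 1.39% for Gimap7, 0.0565% for Gimap6 and 0 for Gimap4, Gimap8 and Gimap9. Gimap3 and Gimap5 share such stretches with each other.

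The RefSeq table of promoters (GRCm38.p6) held all 8 genes, with 9 start sites, since Gimap8 has a second one. In the 250 bases before each start site, both strands were searched for the letters TGTGGT (RUNX), CCGGAAGT (ETS) with its core GGAAGT, and GGGTGTGG (KLF) with its core GGGTG, each core being part of its full motif. RUNX, ETS and KLF proteins are transcription factors of lymphocytes, and Klf2 keeps T cells quiescent. The RUNX letters stood in the windows of Gimap4, Gimap7 and Gimap1 (33.3% of the 9, against 14% of 32817 windows of the same length) and the ETS core in those of Gimap6 and Gimap5 (22.2% against 19.7%). The KLF core stood in 6 of the 9 (66.7% against 52%), those of Gimap9, Gimap4, Gimap5 and Gimap3 and both of Gimap8. The Gimap8 windows overlap and share a KLF core, which is thus counted in both. The full ETS letters (2.88% of all windows) and the full KLF letters (3.19%) stood in none of the 9. Shown are the windows of Gimap3 (chr6:48770852-48771101, minus strand) and Gimap4 (chr6:48684328-48684577, plus strand), whose levels differed most between NKG2A+ and uneducated cells, and of Gimap1 (chr6:48738797-48739046, plus strand), whose level differed least. Capitals mark the RUNX letters and the ETS and KLF cores on either strand.
Gimap3: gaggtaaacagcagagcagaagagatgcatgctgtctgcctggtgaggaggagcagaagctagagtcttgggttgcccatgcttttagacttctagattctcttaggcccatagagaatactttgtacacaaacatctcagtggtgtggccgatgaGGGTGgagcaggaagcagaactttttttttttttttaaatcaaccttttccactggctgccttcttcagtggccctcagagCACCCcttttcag
Gimap4: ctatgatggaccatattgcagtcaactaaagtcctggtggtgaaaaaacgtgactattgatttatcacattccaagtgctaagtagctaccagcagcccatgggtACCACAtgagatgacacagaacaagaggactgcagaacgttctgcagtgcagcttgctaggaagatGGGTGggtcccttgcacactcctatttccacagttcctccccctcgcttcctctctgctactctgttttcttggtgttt
Gimap1: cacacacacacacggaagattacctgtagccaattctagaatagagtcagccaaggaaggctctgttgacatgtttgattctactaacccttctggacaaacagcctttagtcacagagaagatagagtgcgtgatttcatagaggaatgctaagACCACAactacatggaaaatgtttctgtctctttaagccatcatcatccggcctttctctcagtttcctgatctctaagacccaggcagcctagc
Gimap4 thus held both RUNX letters, 145 bases before its start, and a KLF core, while Gimap3 held KLF cores alone and Gimap1 RUNX letters alone. Such matches describe the letters of a window and were not tested for binding.

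All 8 members were detected in each of the 37 libraries. Per kb of exon, Gimap4 stood highest in every group, at 365 ± 73.2 CPM per kb (SD, n = 9) in WT uneducated and 676 ± 101 CPM per kb (n = 9) in NKG2A+ libraries. Gimap6 followed at 172 ± 32.8 and 276 ± 27.3 CPM per kb and Gimap3 at 130 ± 25.7 and 255 ± 44.4 CPM per kb in the same groups. Gimap8, whose protein carries more than 1 GTPase domain, was lowest, at 13.2 ± 3.02 and 23.3 ± 4.63 CPM per kb. The family thus covered a wide range of levels in the same cells, with Gimap4 as its most abundant transcript.

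Summed over the 8 members, WT uneducated libraries had 2313 ± 391 CPM (SD, n = 9), KO uneducated 2834 ± 415 (n = 8), WT Ly49C/I+ 3211 ± 257 (n = 6), WT NKG2A+ 3900 ± 443 (n = 9) and KO Ly49C/I+ 3903 ± 386 (n = 5). The highest WT uneducated library (2897 CPM, library 9) stood below the lowest WT Ly49C/I+ library (2930 CPM, library 5) and below the lowest NKG2A+ library (3238 CPM, library 8). For each of the 8 members WT uneducated cells had the lowest mean of the 5 groups. The highest mean was that of KO Ly49C/I+ cells for Gimap9, Gimap7, Gimap1, Gimap5 and Gimap3 and that of NKG2A+ cells for Gimap8, Gimap4 and Gimap6. The order of neighbouring groups was not settled by these means, since the tests below of NKG2A+ against Ly49C/I+ and of KO against WT cells passed for 1 member and for none. In bulk RNA, fewer cells of a type and less RNA per cell cannot be told apart.

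**Figure D1:**
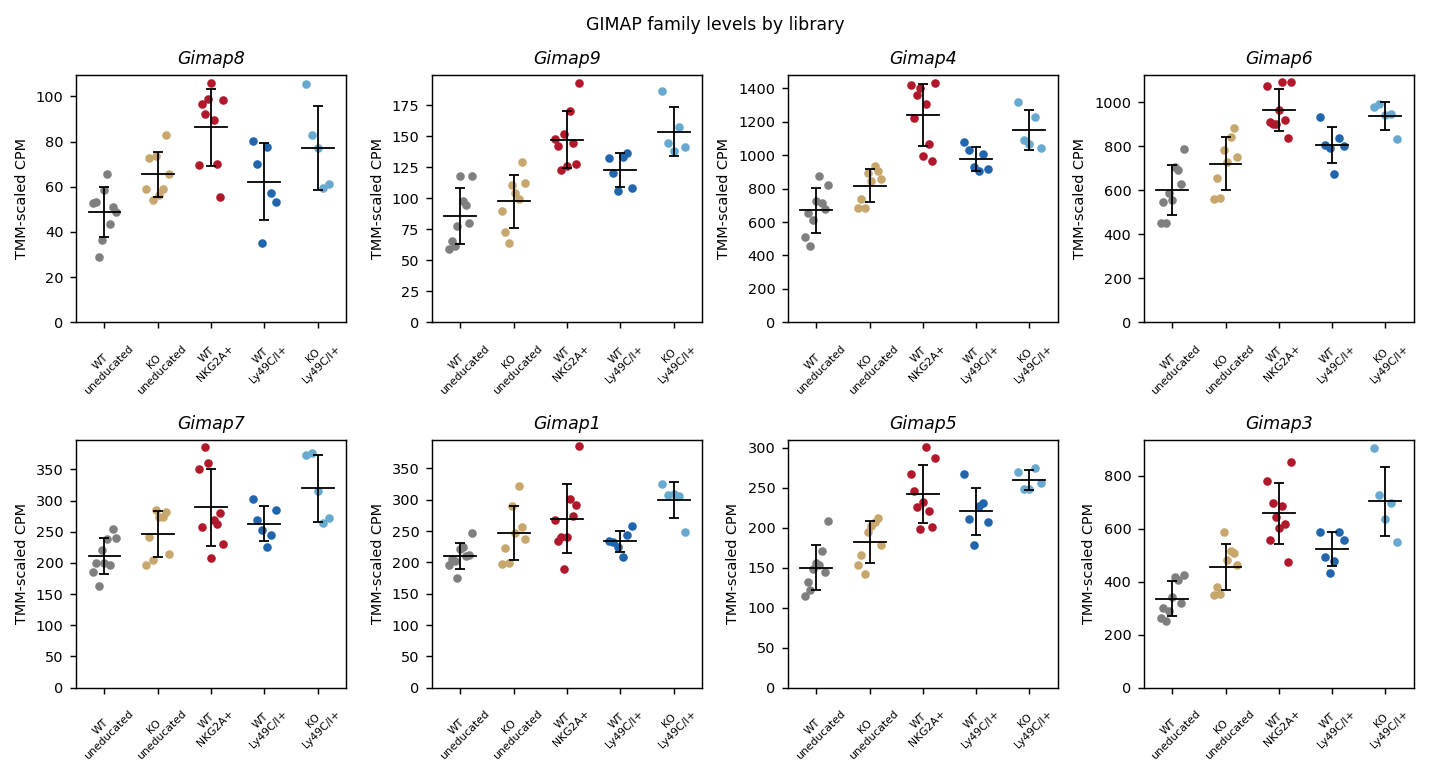
Levels of the 8 GIMAP genes in TMM-scaled CPM (vertical axes from 0) by group, with 1 point per library and the mean with its SD as bars, n = 9, 8, 9, 6 and 5 from left to right. WT uneducated libraries have the lowest mean in each panel, and for Gimap4 all 9 NKG2A+ libraries (968 to 1434 CPM) stand above all 9 WT uneducated ones (457 to 876 CPM).

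The first question was how NKG2A+ cells differ from uneducated cells in WT mice. All 8 members were higher in NKG2A+ cells past the adjusted p threshold of 0.05 in edgeR's quasi-likelihood test, by 0.36 to 0.98 on the log2 scale (median 0.74, against 0.01 over all 9339 genes tested). Across all genes tested, 7.47% were called higher. The members' differences thus lay above the median gene, and their 8 calls are not independent observations, because the genes are neighbours that vary together between libraries. All 8 calls stayed with each of the 18 libraries left out in turn and without the libraries with the fewest genes.

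Gimap3 and Gimap5 are close relatives that bind BCL2 family proteins, and Gimap3 had the largest difference of the family. It ranged from 252 to 425 CPM (median 319) in WT uneducated and from 474 to 853 CPM (median 646) in NKG2A+ libraries. The groups did not overlap, and the log2 fold change was 0.98 (SE 0.12, edgeR adjusted p = 1.27e-05). Gimap5, needed for the survival of T and NK cells, ranged from 115 to 208 CPM (median 149) in uneducated and from 198 to 300.5 CPM (median 232) in NKG2A+ libraries. Here 1 uneducated library, number 9, reached into the NKG2A+ range, and the log2 fold change was 0.70 (SE 0.11, edgeR adjusted p = 0.000179).

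Gimap4, which acts in T cell death and cytokine secretion, ranged from 457 to 876 CPM (median 676) in uneducated and from 968 to 1434 CPM (median 1304) in NKG2A+ libraries. Its groups did not overlap, with a log2 fold change of 0.89 (SE 0.12, edgeR adjusted p = 2.25e-05). Gimap6, which binds ATG8 proteins, ranged from 450 to 789.5 CPM (median 589) against 839 to 1094 CPM (median 919). These groups were apart as well, at a log2 fold change of 0.69 (SE 0.10, edgeR adjusted p = 7.71e-05).

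Gimap9 ranged from 58.8 to 118 CPM (median 79.8) in uneducated and from 123 to 193 CPM (median 144) in NKG2A+ libraries, again without overlap, at a log2 fold change of 0.79 (SE 0.14, edgeR adjusted p = 0.000499). Gimap3, Gimap4, Gimap6 and Gimap9 were the 4 members without overlap, against 1.25% of all genes tested. Gimap8 ranged from 28.7 to 65.7 CPM (median 51) against 55.3 to 106 CPM (median 92.3), with a log2 fold change of 0.83 (SE 0.15, edgeR adjusted p = 0.000604). Only NKG2A+ library 8 lay inside the uneducated range of Gimap8.

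The smallest differences were those of Gimap7 and Gimap1. Gimap7, a GTPase that forms dimers, ranged from 163 to 254 CPM (median 201) in uneducated and from 208.5 to 386 CPM (median 269) in NKG2A+ libraries, a log2 fold change of 0.46 (SE 0.12, edgeR adjusted p = 0.00865). Gimap1, which mature B and T cells need for survival, ranged from 174 to 247 CPM (median 210) against 190 to 385 CPM (median 268), a log2 fold change of 0.36 (SE 0.10, edgeR adjusted p = 0.0212). Both pairs of groups overlapped, and 5 of 9 NKG2A+ libraries stood above the highest uneducated library for Gimap1. Without a filter on low counts Gimap1 no longer passed (adjusted p = 0.0531).

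Markers of T cells, which also express GIMAP genes, moved with the same groups. Of the 14 genes of a T cell list, 8 were tested and 5 were higher in NKG2A+ cells (median log2 fold change 0.50), and their summed level was 1082 to 1737 CPM in WT uneducated and 1784 to 2417 CPM in NKG2A+ libraries. Most of that sum was Lck (714 and 1191 CPM) and T cell receptor constant regions, which NK cells transcribe too. Cd3e had 4.07 CPM on average (1.13 to 8.28) in uneducated and 14.5 CPM (6.33 to 33.3) in NKG2A+ libraries. Both Cd3e (log2 fold change 1.84, edgeR adjusted p = 0.00177) and Cd3d (1.19, adjusted p = 0.00156) were among the genes called higher. Cd4 was at 0 in 35 and Cd8a in 34 of the 37 libraries, with 3.37 and 2.77 CPM as the highest values. The sort had excluded cells with CD3, CD4 or CD8 protein. The part of T cells in the GIMAP differences was not tested.

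The second question was whether Ly49C/I+ cells differ from the same 9 uneducated libraries of WT mice. Of the 8 members, 5 were higher and none was lower past the threshold, with a median log2 fold change of 0.47 against 0.01 over the 9292 genes tested, of which 4.5% were called higher. Since the uneducated libraries are shared with the first comparison, the values of both stand side by side without a test of their likeness. The 5 members were Gimap3, Gimap4, Gimap5, Gimap6 and Gimap9.

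Gimap3 ranged from 434.5 to 590 CPM (median 526) in the 6 Ly49C/I+ libraries, all above the 9 uneducated ones, with a log2 fold change of 0.64 (SE 0.12, edgeR adjusted p = 0.00444). Gimap4 ranged from 905 to 1078 CPM (median 967), also all above, at 0.54 (SE 0.12, edgeR adjusted p = 0.00925). These were the 2 members without overlap, against 1.23% of all genes tested. Gimap5 ranged from 179 to 267 CPM (median 219), and 4 of its 6 libraries stood above the highest uneducated one. Its log2 fold change was 0.56 (SE 0.12, edgeR adjusted p = 0.00916).

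Gimap9 ranged from 106 to 137 CPM (median 127) and Gimap6 from 676 to 931.5 CPM (median 804), and both overlapped the uneducated range. Their log2 fold changes were 0.52 (SE 0.16, edgeR adjusted p = 0.0428) and 0.43 (SE 0.12, adjusted p = 0.0290). The Gimap9 call was lost with any one of 12 libraries left out, WT uneducated 1, 2, 3, 4, 7 or 8 or any Ly49C/I+ library (log2 fold changes 0.45 to 0.55, adjusted p = 0.0511 to 0.107), and the Gimap6 call with any one of 9, WT uneducated 1, 2, 3 or 4 or Ly49C/I+ 1, 2, 4, 7 or 8 (0.37 to 0.42, adjusted p = 0.0513 to 0.0766). Gimap3, Gimap4 and Gimap5 passed in every such fit.

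The other members did not pass. Gimap7 ranged from 225 to 303 CPM (median 261), Gimap8 from 35.2 to 80.4 CPM (median 63.5) and Gimap1 from 209 to 258 CPM (median 234), all with overlap. Gimap7 had a log2 fold change of 0.32 (SE 0.10, edgeR adjusted p = 0.0552), Gimap8 of 0.35 (SE 0.19, adjusted p = 0.262) and Gimap1 of 0.15 (SE 0.08, adjusted p = 0.265). Gimap7 passed with DESeq2, with the likelihood ratio test, with offsets for GC content and length, and without the libraries with the fewest genes. In this comparison 3 of 7 tested T cell genes were higher, and their summed level was 1847 to 2193 CPM in Ly49C/I+ libraries. Their part in the result was not tested.

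NKG2A+ and Ly49C/I+ cells of WT mice were set against each other next. All 8 members had a log2 fold change above 0 towards NKG2A+ cells (0.14 to 0.47, median 0.26), and 1 of them, Gimap4, passed at 0.35 (SE 0.09, edgeR adjusted p = 0.0465), where 1.31% of 9308 genes were called higher. NKG2A+ libraries ranged from 968 to 1434 CPM of Gimap4 and Ly49C/I+ libraries from 905 to 1078 CPM, so that the groups overlapped. The call was lost with any one of 11 of the 15 libraries left out, NKG2A+ 1, 2, 3, 4, 6 or 9 or Ly49C/I+ 2, 4, 5, 7 or 8 (0.32 to 0.36, adjusted p = 0.0572 to 0.0967). DESeq2 called 3 members, and a block for the replicate number none. The approximate 95% interval, not adjusted for the number of genes, lay above 0 for Gimap8 (0.13 to 0.81), Gimap3 (0.12 to 0.54), Gimap6 (0.11 to 0.41) and Gimap9 (0.06 to 0.47) as for Gimap4 (0.17 to 0.52). It reached below 0 for Gimap5 (-0.07 to 0.34), Gimap7 (-0.10 to 0.38) and Gimap1 (-0.02 to 0.43). At an unadjusted edgeR p under 0.05, 5 of 8 members were higher, against 861 of the 9308 genes. Of all genes tested, 49.89% had a log2 fold change above 0. Since the members are neighbours that vary together, their like signs are not independent observations.

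Ly49C/I+ cells were also set against uneducated cells in NKG2A KO mice, where both groups carry the deletion. NKG2A could not mark cells for the sort there, so the groups may differ in make-up from the WT groups of the same name. Of the 8 members, 6 were higher and none was lower, with a median log2 fold change of 0.42 against 0.02 over the 9299 genes tested, of which 7.34% were called higher. These were Gimap3, Gimap4, Gimap5, Gimap6, Gimap7 and Gimap9.

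Gimap9 had 187, 145, 138, 158 and 141 CPM in KO Ly49C/I+ libraries 4 to 8, against 64.1 to 129 CPM (median 102) in the 8 KO uneducated ones. All 5 stood above, at a log2 fold change of 0.64 (SE 0.14, edgeR adjusted p = 0.00694). Gimap4 had 1320, 1094, 1067, 1228 and 1044 CPM against 684 to 933 CPM (median 852), likewise all above, at 0.47 (SE 0.09, edgeR adjusted p = 0.00259). Gimap5 had 269, 249, 249, 275 and 255 CPM against 142 to 212 CPM (median 186), again apart, at 0.50 (SE 0.10, edgeR adjusted p = 0.00308). These 3 members did not overlap, against 2.3% of all genes tested.

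Gimap3 had 904, 730.0, 639, 698 and 551 CPM in KO Ly49C/I+ libraries 4 to 8 against 352 to 588 CPM (median 474.5) in KO uneducated ones. Library 8 alone fell inside the uneducated range, and the log2 fold change was 0.61 (SE 0.13, edgeR adjusted p = 0.00538). Gimap6 (980, 992, 941, 946 and 831 CPM against 559 to 884, median 740) and Gimap7 (373, 376, 316, 264 and 272 CPM against 197 to 285, median 257) both rose by 0.36 (SE 0.10 and 0.12, edgeR adjusted p = 0.0260 and 0.0433), with overlap. The Gimap7 call was lost with any one of 8 libraries left out, KO uneducated 1, 2, 3, 5 or 8 or Ly49C/I+ 4, 5 or 6 (0.30 to 0.38, adjusted p = 0.0501 to 0.128). The Gimap6 call was lost without KO uneducated 2 or Ly49C/I+ 4, 5 or 7 (0.34 to 0.35, adjusted p = 0.0503 to 0.0633). Both calls were also lost without a filter on low counts (adjusted p = 0.067 for Gimap6 and 0.104 for Gimap7) and with the replicate block (0.0726 and 0.126), and that of Gimap7 with filterByExpr (0.0702).

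Gimap1 (325, 307, 308.5, 306 and 249 CPM against 197 to 322.5, median 242) and Gimap8 (105, 82.7, 77.3, 59.3 and 61.4 CPM against 54.2 to 83.1, median 62.3) did not pass, at 0.26 (SE 0.11, edgeR adjusted p = 0.124) and 0.22 (SE 0.15, adjusted p = 0.326). The ranges of both overlapped with those of uneducated cells. T cell genes stood at 1343 to 1929 CPM in sum in KO uneducated and at 2072 to 2258 CPM in KO Ly49C/I+ libraries, with 2 of 7 tested genes higher. Cd4 and Cd8a, whose proteins the sort had excluded, were at 0 in all 13 libraries of this comparison. The part of T cells was not tested.

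**Figure D2:**
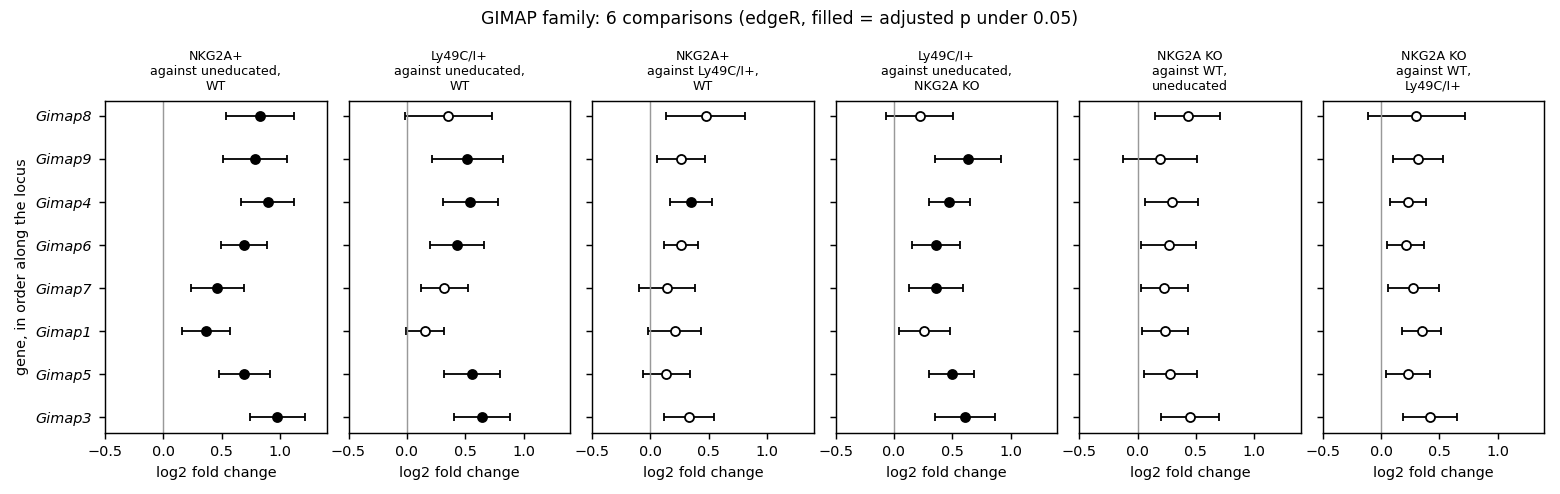
Log2 fold changes of the 8 GIMAP genes in 6 comparisons (horizontal axes, first-named group over second), with points for edgeR estimates, bars for approximate 95% intervals and filled points where the adjusted p was under 0.05. All points lie above 0, and filled points number 8, 5, 1, 6, 0 and 0 from left to right.

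Between genotypes, none of the 8 members passed. Groups of the same name may hold different cells in KO and WT mice, since NKG2A cannot mark cells where it is deleted. The part of this in the differences was not tested. In uneducated cells, edgeR called no member and 0% of the 9288 genes, and the members' log2 fold changes of KO over WT were 0.19 to 0.45 (median 0.27, against -0.01 over all genes; adjusted p = 0.507 to 0.864). At an unadjusted p under 0.05, 7 of 8 members were higher, against 3.81% of all genes, which is 354 of the 619 genes at that p. Gimap3 had the largest difference, from 335 ± 66.1 CPM (SD, n = 9) in WT to 456 ± 85.4 CPM (n = 8) in KO uneducated cells (0.45, SE 0.13), and Gimap9 the smallest, from 85.9 ± 22.7 to 97.8 ± 21.4 CPM (0.19, SE 0.16). DESeq2 and the likelihood ratio test called no member and 1 gene each.

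In Ly49C/I+ cells, KO over WT gave 0.21 to 0.42 (median 0.29, against 0.00 over all genes; adjusted p = 0.185 to 0.648). The test called no member and 0% of the 9344 genes, and 7 of 8 members were higher at an unadjusted p under 0.05, against 5.37% of all genes (992 genes in either direction). Gimap9 was the 1 member without overlap (138 to 187 CPM in KO, 106 to 137 CPM in WT), against 0.867% of all genes. The likelihood ratio test called no member and 60 genes. DESeq2 called 118 genes and 2 members, Gimap1 (0.35, SE 0.09 in edgeR) and Gimap3 (0.42, SE 0.12 in edgeR), with DESeq2 adjusted p = 0.0193 and 0.032. The 2 genotype comparisons share no library, but the members are neighbours that vary together, so that like signs are not independent observations.

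Whether Ly49C/I+ cells stood apart from uneducated cells to a different degree in KO and in WT mice was tested as an interaction. No member passed (0% of 9322 genes with edgeR, 407 genes and no member at an unadjusted p under 0.05, and 1 gene and no member each with DESeq2 and the likelihood ratio test), and the differences, KO minus WT, ran from -0.12 for Gimap8 to 0.13 for Gimap9 (adjusted p = 0.9995 for all 8). The approximate 95% intervals were wide, from -0.61 to 0.37 for Gimap8 and from -0.39 to 0.35 for Gimap3, which leaves room for a difference in either direction.

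Few neighbours of the cluster could be tested, and their estimates differed. Of 32 other annotated genes within 200 kb, 7 were tested in NKG2A+ against uneducated cells, and 3 were higher: the noncoding Gimap1os (0.94, SE 0.22, edgeR adjusted p = 0.00594) inside the cluster, and Tmem176b (2.33, SE 0.32, adjusted p = 3.32e-05) and Tmem176a (2.64, SE 0.39, adjusted p = 9.41e-05), which encode ion channel-like membrane proteins, beyond Gimap3. Lrrc61, Repin1, Zfp775 and AI854703, on the Gimap8 side, had log2 fold changes of -0.31 to 0.03 and did not pass. Their SEs were 0.24 to 0.37, against 0.10 to 0.15 for the members, so smaller changes of these neighbours could be missed. In Ly49C/I+ cells no neighbour passed in WT (6 tested) or KO mice (6 tested), and Tmem176b had -0.72 (SE 0.35, adjusted p = 0.211) in WT mice, whereas Gimap1os had 0.81 (SE 0.26, adjusted p = 0.0592). NKG2A+ cells exceeded Ly49C/I+ cells in Tmem176a by 3.20 (SE 0.37, edgeR adjusted p = 8.84e-05) and in Tmem176b by 3.05 (SE 0.38, adjusted p = 0.000284). Gimap1os had 9.21 ± 2.90 CPM (SD, n = 9) in WT uneducated and 17.7 ± 4.13 CPM (n = 9) in NKG2A+ libraries, far below Gimap1. A read-through gene, Gm28053, which spans Gimap7 to Gimap5, stood at group means of 1.25 to 3.58 CPM and was not tested.

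**Figure D3:**
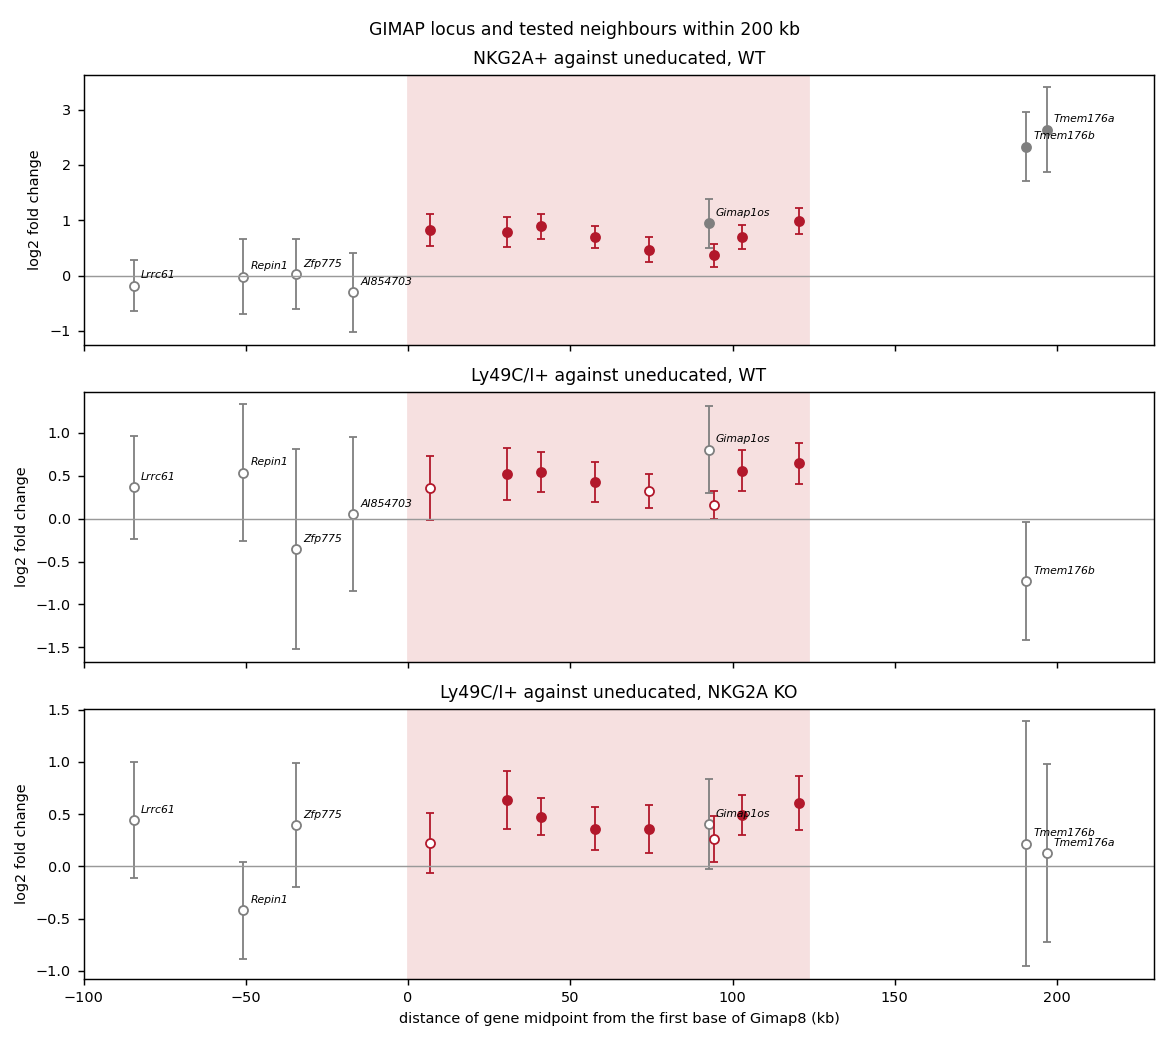
Log2 fold change (vertical axes) against the distance of each gene's midpoint from the first base of Gimap8 in kb, for NKG2A+ and Ly49C/I+ against uneducated WT cells and Ly49C/I+ against uneducated KO cells, with GIMAP members in red, other tested genes within 200 kb in grey, bars for approximate 95% intervals, filled points where the adjusted p was under 0.05 and the cluster shaded. Members lie above 0 in all 3 panels, while Tmem176a and Tmem176b reach 2.64 and 2.33 in the top panel alone.

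Within groups, the members varied together to different degrees. Deviations from the group means of log2(CPM + 1), over 37 libraries, gave Pearson correlations of 0.0999 to 0.848 for the 28 pairs of members (median 0.548), all of them above 0. The highest were those of Gimap3 with Gimap4 (0.848) and Gimap6 (0.834) and of Gimap6 with Gimap5 (0.833). The lowest were those of Gimap1 with Gimap8 (0.0999) and Gimap7 (0.138), although Gimap7 is a direct neighbour of Gimap1. Gimap3, Gimap4, Gimap5, Gimap6 and Gimap9 had the highest correlations with one another. The points share library, depth and RNA input, so these values describe the libraries and carry no test.

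**Figure D4:**
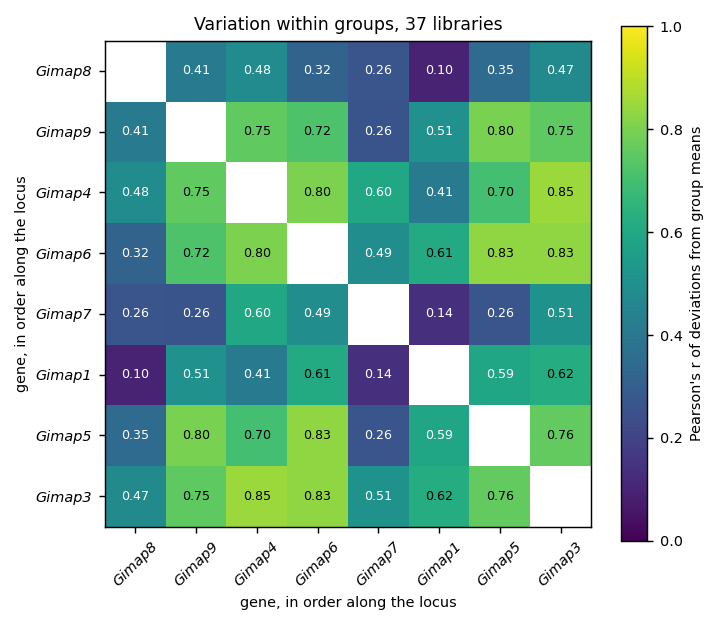
Pearson correlation of the members' deviations from their group means over 37 libraries, in the order of the genes along the locus on both axes, with colour from 0 to 1. Values among Gimap9, Gimap4, Gimap6, Gimap5 and Gimap3 are 0.70 and above, and those of Gimap7, Gimap8 and Gimap1 are lower.

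Among 9278 other genes, those most like the mean standardised level of the 8 members over the 37 libraries were Bin2 (Pearson 0.942), H2-Q7 (0.940), Epsti1 (0.926), Hsd11b1 (0.926) and Adgre5 (0.918), on 5 other chromosomes. H2-Q7 encodes a nonclassical MHC class I molecule, Bin2 a membrane-bending BAR protein of leukocytes, Epsti1 an interferon-induced protein, Hsd11b1 the enzyme that reactivates glucocorticoids, and Adgre5 the adhesion receptor CD97. H2-Q7 had 210 ± 41.3 CPM (SD, n = 9) in WT uneducated, 280 ± 56.6 (n = 8) in KO uneducated, 361 ± 60.4 (n = 9) in NKG2A+, 339 ± 29.7 (n = 6) in WT Ly49C/I+ and 412 ± 55.2 CPM (n = 5) in KO Ly49C/I+ libraries. By deviations from the group means alone, the closest were H2-Q7 (0.857), Sept1 (0.856), ENSMUSG00000095041 (0.845), Cd2 (0.840) and Epsti1 (0.832). Cd2 encodes an adhesion receptor of T and NK cells and Sept1 a septin of the cytoskeleton. These correlations carry no test either.

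Proteins that GIMAP members are known to work with were read as 2 lists. Of 18 BCL2 family genes, 11 were tested, and none passed in NKG2A+ against uneducated WT cells (median log2 fold change 0.20), while Bcl2l11, which encodes the proapoptotic protein BIM, was higher in Ly49C/I+ WT cells (0.50, edgeR adjusted p = 0.0190) and Bcl2 itself, which is antiapoptotic, in Ly49C/I+ KO cells (0.56, adjusted p = 0.0343). All 11 genes of the ATG8 family and its conjugation were tested, with medians of 0.05 to 0.11 in the 3 comparisons with uneducated cells. Of these, Atg12 (0.37, edgeR adjusted p = 0.0412) and Map1lc3b (0.33, adjusted p = 0.00594) were higher in NKG2A+ cells, Atg16l1 (0.98, adjusted p = 0.0106) in WT Ly49C/I+ cells and Map1lc3b (0.29, adjusted p = 0.0199) in KO Ly49C/I+ cells.

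The GBP and IRG proteins are another pair of immune GTPase families, induced by interferon. Of 13 such genes 11 were tested, and 5 were higher in NKG2A+ cells (median log2 fold change 0.44), 2 in WT Ly49C/I+ cells (median 0.33) and 9 in KO Ly49C/I+ cells (median 0.54), with none lower. In NKG2A+ cells these included Gbp6 (1.27, edgeR adjusted p = 0.00063), Igtp (0.98, adjusted p = 0.000206), Gbp2 (0.59, adjusted p = 0.0456) and Irgm1 (0.55, adjusted p = 0.0121).

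Genes of lymphocyte quiescence and recirculation, the setting in which GIMAP proteins are best known, numbered 18. In NKG2A+ cells 11 of 18 tested were higher and none lower (median log2 fold change 0.67), with Il7r (2.51, edgeR adjusted p = 0.00151), the IL-7 receptor chain of long-lived lymphocytes, S1pr1 (1.84, adjusted p = 0.00936) and S1pr5 (1.5, adjusted p = 0.00178), which guide cells out of tissue, and Slfn2 (1.13, adjusted p = 1.83e-05), which keeps T cells quiescent. In WT Ly49C/I+ cells 4 of 17 were higher and Lef1 was lower (-0.96, edgeR adjusted p = 0.00925), and the median was 0.44. In KO Ly49C/I+ cells 6 of 17 were higher and 3 lower (median 0.31), and S1pr1 there was lower at -0.98 (edgeR adjusted p = 0.0480).

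Subsets of NK cells differ in many genes, and lists for conventional and for resident cells were read in the same comparisons. Of 10 genes of conventional NK cells, 8 were higher in NKG2A+ cells and Klrg1 was lower (median log2 fold change 1.06), among them Zeb2 (1.33, edgeR adjusted p = 0.00783) and Cx3cr1 (1.27, adjusted p = 0.00693). Of 12 genes of tissue-resident NK cells and ILC1, 5 were higher and Itga1 was lower (median 0.99), led by Cd200r1 (3.29, adjusted p = 0.00089), Cxcr6 (2.86, adjusted p = 2.68e-05), Tmem176a (given above) and Rora (2.49, adjusted p = 1.96e-05). Their summed levels overlapped between WT uneducated (3609 to 4672 CPM for conventional NK and 2630 to 3789 CPM for resident NK and ILC1) and NKG2A+ libraries (3227 to 6195 and 2617 to 4500 CPM). In WT Ly49C/I+ cells 1 of 10 conventional NK genes was higher and 1 lower, and 2 of 10 tested resident genes were higher (medians 0.55 and 0.21). In KO Ly49C/I+ cells 6 of 10 conventional NK genes were higher (median 0.61), and of 11 tested resident genes 4 were higher and Rora was lower (-1.23, adjusted p = 0.0458; median 0.23). The resident sum was 2955 to 3965 CPM in KO uneducated and 4198 to 5961 CPM in KO Ly49C/I+ libraries, without overlap. The part of such subsets in the GIMAP levels was not tested.

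Of 12 general NK genes, 6 were higher in NKG2A+ cells, including Gzma (1.06, edgeR adjusted p = 5.04e-05) and Klrk1 (0.71, adjusted p = 9.41e-05), and the cytotoxic effectors Prf1 (-0.69, adjusted p = 0.000294) and Gzmb (-0.68, adjusted p = 0.000184) were lower, against the direction of the GIMAP family. Prf1 and Gzmb were lower in WT Ly49C/I+ cells (-0.70 and -0.57, adjusted p = 0.00629 and 0.0100) and in KO Ly49C/I+ cells (-0.45 and -0.33, adjusted p = 0.0302 and 0.0426) as well. Few markers of other cells reached the level for a test. For B cells 1 of 8, for endothelial cells 1 of 10, for stromal and decidual cells 1 of 10, for trophoblast and epithelial cells 2 of 8 and for monocytes and macrophages 3 to 4 of 10 genes were tested. None of these was called higher in any of the 3 comparisons with uneducated cells. The stromal gene tested had log2 fold changes of 3.05 in NKG2A+, 0.03 in WT Ly49C/I+ and -1.53 in KO Ly49C/I+ cells, none of them called. The macrophage genes had medians of 0.675, 0.02 and -0.65 in the same order. The part of such cells in the GIMAP levels was not tested. Ighm, the B cell gene tested, was lower in NKG2A+ cells (-0.38, adjusted p = 0.00493) and made up most of a B cell sum of 392 to 639 CPM in WT uneducated and 380 to 480 CPM in NKG2A+ libraries. Epcam, an epithelial adhesion gene, was lower in NKG2A+ (-1.28, adjusted p = 2.47e-05), WT Ly49C/I+ (-1.10, adjusted p = 0.00109) and KO Ly49C/I+ cells (-1.31, adjusted p = 0.00231), and Cdh1 in NKG2A+ cells (-0.71, adjusted p = 0.0242). The macrophage sum reached 422 CPM in a WT Ly49C/I+ library. Ms4a1, a defining gene of B cells, was at 0 in all NKG2A+ and all Ly49C/I+ libraries, and the stromal sum ranged from 2.46 to 897 CPM among NKG2A+ libraries. The endothelial gene tested, Pecam1, fell from 274 to 161 CPM between WT uneducated and NKG2A+ cells (log2 fold change -0.76), while Cdh5 had at most 0.488 CPM.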

How the data were processed

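The authors amplified cDNA from total RNA with SMART-Seq v4, prepared libraries with Nextera XT, trimmed reads with Trim Galore 0.5.0 and aligned them to GRCm38 with STAR 2.7.1. The deposited values are raw counts of reads per Ensembl gene. Neither the counting program nor its strand setting is given in the sources used here. Each library also lists 5 summary lines that belong to no gene and entered neither library sizes nor tests. They held 2.69% to 6.83% (no feature), 4.04% to 4.6% (ambiguous) and 11.3% to 13.8% (no unique position) of all reads. Reads without molecular identifiers are not independent molecules.

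The quasi-likelihood test of edgeR 4.0.16 (R 4.3.3) was run on counts with TMM factors and Benjamini-Hochberg adjustment, on the groups compared alone, for genes that reached 5 CPM in a share of 0.5 or more of those libraries. Standard errors came from the test statistic, and the procedure was tried on simulated counts. Among the alternatives were DESeq2 1.42.0, a likelihood ratio test, RLE factors, filters on low counts, GC content and length splines (5 degrees of freedom) in place of the CQN offsets that the authors used, a replicate block, a joint fit of all groups and the omission of single libraries. Omission of the 4 libraries with the fewest genes was added after the data were seen. WT Ly49C/I+ libraries are numbered by a second label line, which disagrees with some of their titles, and WT uneducated 5 by its title, since its second line repeats that of another library, so that the replicate block rests on uncertain numbers in WT mice. Genes were named as all 8 members, Gimap1os, neighbours within 200 kb past the threshold, the 5 genes most alike by either measure, and up to 4 genes of each list with the largest changes past the threshold in WT mice. Single genes of a list that are named for KO mice, for a lower level or as defining markers were chosen after their values were seen. The members, the lists and the rule were chosen with earlier results of these data known.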

Additional observations from a re-analysis of the deposited data

Results flagged for a closer look

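Among the 5 libraries of KO Ly49C/I+ cells, library 8 stood apart for Gimap1, at 249.2 CPM where the next lowest library had 306 CPM, a gap of 0.747 of the whole range of the group. The other 7 members were not set apart in this library by the same measure. It was the 1 value found in 45 such checks of a gene in a group, and chance alone gives about 1 in 20. Without this library the difference of Gimap1 between KO and WT Ly49C/I+ cells was 0.41 on the log2 scale in place of 0.35.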

How the results depend on the processing

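Over the 8 members, 1536 alternative values were computed, of which 1439 kept direction and call, 63 lost the call, 15 gained it and 19 changed sign. All 19 were in the difference of effects, KO minus WT, where the main values ran from -0.12 to 0.13 and none was called. NKG2A+ against uneducated WT cells called 8 members under each alternative except 7 without a filter on low counts. Ly49C/I+ against uneducated WT cells called 3 members without a filter and 3 with filterByExpr, and 3 to 6 with a library left out, while the count of genes (855) was 451 without a filter, 1528 with all groups in 1 fit and 466 to 1227 with a library left out. NKG2A+ against Ly49C/I+ called 3 members with DESeq2 and 0 without a filter, with filterByExpr, with GC content and length offsets, with the replicate block, with both, with all groups in 1 fit and without the 4 libraries with the fewest genes, and 0 to 2 with a library left out. Its 254 genes became 442 with the likelihood ratio test, 558 with DESeq2, 104 without a filter and 147 to 306 with a library left out. Ly49C/I+ against uneducated KO cells (1519 genes) called 889 without a filter, 759 with the replicate block, 654 with the block and GC offsets and 967 to 1763 with a library left out. KO against WT called 1 gene each in uneducated cells, and in Ly49C/I+ cells 60 (likelihood ratio test), 118 (DESeq2, with 2 members), 18 (all groups in 1 fit) and 0 to 15 (a library left out), and the difference of effects 1 gene each by the likelihood ratio test and DESeq2. Within a genotype, deviations of same-numbered libraries correlated at -0.0266 to 0.267. The best match was the own number in 6 of 9, 5 of 6, 6 of 6 and 3 of 5 pairs of the first 4 comparisons. Libraries with the same number may thus be related there, which the main fits ignored. Between genotypes a number cannot mark the same mouse, and there the values were -0.247 to 0.273, with 3 of 8 and 1 of 4 pairs. Since the numbers are uncertain in WT mice, the replicate block was kept as an alternative. With it, 8, 5, 0, 4, 0 and 0 members were called, Gimap6 and Gimap7 being those lost in KO mice. Changes of sign in the difference of effects came for Gimap9 (-0.146 with the block, -0.3 with block and GC offsets), Gimap7 (-0.0729 with the block, -0.0869 with both, -0.0434 without the 4 libraries, -0.0108 to 0.106 with a library left out), Gimap1 (-0.0629 with the block), Gimap5 (-0.118 to 0.0149 with a library left out) and Gimap3 (0.0286 with GC offsets, -0.13 to 0.0539 with a library left out). Gimap1os changed sign in NKG2A+ against Ly49C/I+ (-0.0103 with GC offsets, -0.0485 with the block and GC offsets) and in KO against WT Ly49C/I+ cells (-0.083 to 0.0957 with a library left out). The cause was not tested. The members were counted in every library, and the part of depth in their levels was not tested.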

Other observations

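Some genes ran opposite to the GIMAP family across the 37 libraries, and they were looked for after the family's levels had been seen. The lowest Pearson correlations with the mean standardised level of the members, among 9278 genes, were those of Tnfrsf9 (-0.934), which encodes the costimulatory receptor 4-1BB, Cd55 (-0.926), which encodes a complement inhibitor, Dixdc1 (-0.908), Atxn10 (-0.894) and Spp1 (-0.882), which encodes osteopontin. Tnfrsf9 had 1464 ± 284 CPM (SD, n = 9) in WT uneducated, 1271 ± 244 (n = 8) in KO uneducated, 993 ± 95.9 (n = 6) in WT Ly49C/I+, 828 ± 94.2 (n = 9) in NKG2A+ and 796 ± 138 CPM (n = 5) in KO Ly49C/I+ libraries, the reverse order of the summed members. The same libraries chose these genes, so their correlations and levels are a description, and no test of them is given.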
